A study of Capra hircus with 12 samples.

Results

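The Hippo pathway and TEAD genes examined here were YAP1, WWTR1, TEAD1, TEAD3, LATS1, LATS2, PTPN14, AMOTL1 and AMOTL2, which are 9 of the 28910 rows of the count tables. Of these, 8 were chosen by their place in the pathway, with earlier results of these data known. PTPN14 was picked for its lower counts in the MLC libraries labelled IL-1β+LOXL2. For that reason its MLC values are given below as a description, without a test.

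The study transduced goat temporomandibular joint (TMJ) cells with LOXL2, a lysyl oxidase that crosslinks collagen and elastin, and asked what this did to cells exposed to the inflammatory cytokine IL-1β. Messenger RNA was sequenced in 12 libraries, 3 from each of 4 groups. Condylar cells were taken from the superficial (SLC) and the middle (MLC) fibrocartilage, and they received a brief exposure to IL-1β, alone or after overnight adenoviral LOXL2. Vehicle-treated cells and cells with LOXL2 alone were not analysed here.

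All cells came from joints of young female goats obtained from abattoirs, and they were frozen, passaged and grown in DMEM with serum. The number of animals, and whether their cells were pooled, is not given in the sources used here, nor whether the IL-1β cells of the RNA-seq received an empty adenovirus. The effect of the virus and that of LOXL2 therefore cannot be told apart. Nothing says that replicates were separate cultures or animals, so p-values measure only the spread between these samples, which may be technical. In such bulk samples, fewer cells of a type and less RNA per cell cannot be told apart.

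Library totals were 18751323 to 22123593 counts in SLC with IL-1β, 21080134 to 28931652 in SLC with IL-1β+LOXL2, 14158607 to 15330697 in MLC with IL-1β and 14188227 to 19459045 in MLC with IL-1β+LOXL2. The lowest count of any of the 9 genes in any library was 368, for LATS1, so all 9 passed the filter on low counts in every comparison. Levels below are counts-per-million (CPM) after TMM scaling over all 12 libraries, with the mean ± SD of 3 libraries. CPM is not corrected for transcript length, so levels of the 9 genes were compared between samples and not between genes. Where genes of a list are called most abundant below, the order is one of counts alone.

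The LOXL2 row was read first as a check of the labels. In SLC its CPM was 615, 618 and 633 with IL-1β and 458, 546 and 561 with IL-1β+LOXL2. In MLC it was 767, 876 and 817 with IL-1β and 815, 796 and 742 with IL-1β+LOXL2. The goat LOXL2 gene was thus not higher in any library labelled IL-1β+LOXL2 than in all IL-1β libraries of its layer, and its log2 fold change was -0.27 in SLC (edgeR adjusted p = 0.106) and -0.07 in MLC (adjusted p = 0.595). Whether reads of the transgene can align to the goat gene is not given in the sources used here, so the row does not show the transduction, and every direction below rests on the labels.

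The marker genes set the layers apart. The summed CPM of 7 chondrocyte markers was 137 to 139 in SLC with IL-1β and 591 to 699 in MLC with IL-1β. Among them COMP had the highest CPM in SLC and ACAN in MLC. COL2A1, the defining collagen of hyaline cartilage, had a mean CPM of 0 in SLC with IL-1β and 16.6 in MLC, whereas COL1A1 reached 36560 and 32079. The cells labelled SLC therefore lacked the defining collagen of chondrocytes, and both layers were rich in a fibroblast collagen. The endothelial and osteoblast lists were low, with a summed CPM of 2.92 to 5.23 for 5 endothelial markers and 1.87 to 4.45 for 4 osteoblast markers. VWF and BGLAP led them. The 4 leukocyte markers, led by CD14, had sums of 55.2 to 141. The highest, in MLC with IL-1β, was above the chondrocyte sums of SLC with IL-1β. PTPRC and CDH5, which define leukocytes and endothelium, had a mean CPM of at most 0.0344 in every group.

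Some of these markers moved with the LOXL2 label. The summed CPM of the 5 muscle and pericyte markers, of which ACTA2 was the most abundant and 3 passed the filter, was 833 to 929 in MLC with IL-1β and 1082 to 1398 in MLC with IL-1β+LOXL2. In SLC it was 1406 to 1828 and 1723 to 2032. ACTA2 was higher in MLC (log2 fold change 0.54, adjusted p = 0.0193) and had 0.17 in SLC (adjusted p = 0.364), and it made up most of the sum. MYH11 had -0.03 in MLC (adjusted p = 0.859) and -0.28 in SLC, and RGS5 -0.15 in SLC, so the shift was that of ACTA2 and not of the list. DES and MYF5 had a mean CPM of at most 0.509 in every group. Among the 6 fibroblast markers, led by COL1A1 with sums of 45921 to 58595, THY1 was higher in MLC (log2 fold change 0.40, adjusted p = 0.0214) and PDGFRA lower (-0.46, adjusted p = 0.0267). In SLC THY1 had 0.44 and PDGFRA -0.72, each with an edgeR adjusted p of 0.0706. Of the chondrocyte markers COMP was higher in MLC (0.37, adjusted p = 0.0283). LECT1, at a mean CPM of 0.668 with IL-1β and 1.31 with LOXL2, had 0.95 in MLC (edgeR adjusted p = 0.0635). ACAN had -0.23, HAPLN1 -0.24, SOX9 -0.15 and COL2A1 -0.03 in MLC, and the summed CPM of the list was 595 to 658 with LOXL2. In SLC COMP had 0.36, LECT1 0.47, ACAN -0.27, SOX9 -0.25 and HAPLN1 -0.03, with edgeR adjusted p of at least 0.144. The part of these shifts in the changes of the Hippo genes was not tested.

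Replicates of the LOXL2 groups were uneven. Within SLC with IL-1β+LOXL2, the chi-square per degree of freedom over genes was 169 and 62.0 for the pairs that held replicate 1 and 31.0 for the other pair. Within MLC with IL-1β+LOXL2 it was 16.2 and 36.0 for the pairs that held replicate 1 and 6.10 for the other, while no pair of IL-1β libraries exceeded 9.93. Replicate 1 was the LOXL2 library nearest to the IL-1β mean for 9 of 9 Hippo genes in both layers. The same held for 75.8% of all genes tested in SLC and 70.0% in MLC, so it was not particular to the Hippo genes. What sets this replicate apart was not tested. Counts of calls are given below with and without this replicate, and fold changes of single genes with it unless stated. Without it, YAP1 in SLC went from -0.50 to -0.73, PTPN14 from -1.51 to -1.93 and LIMD1, a gene of the wider pathway, from -1.62 to -2.60.

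The Hippo pathway is a kinase cascade through which cells read contact, shape and matrix stiffness. When the kinases LATS1 and LATS2 are active they phosphorylate the coactivators YAP and TAZ, which then stay in the cytoplasm or are degraded. When they are not, YAP and TAZ enter the nucleus, bind TEAD transcription factors and raise genes of growth and matrix remodelling, and in cartilage they are known to take part in how chondrocytes respond to load and lose or keep their identity. Much of this control acts on protein and its location, which RNA counts do not measure.

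In SLC the groups did not overlap for 8 of 9 genes, all lower with LOXL2, against a background of 23.5% of all genes tested that were lower without overlap and 25.5% that were higher. In MLC, leaving PTPN14 aside, 5 of 8 genes were lower without overlap, TEAD3 was higher without overlap, and LATS2 and AMOTL2 overlapped. The background in MLC was 20.5% lower and 21% higher.

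With edgeR's quasi-likelihood F test and p-values adjusted by Benjamini-Hochberg over all genes, 0 of 9 genes passed an adjusted p of 0.05 in SLC, where the background was also 0% of 14103 genes. At an unadjusted p under 0.05 there were 8, all lower, against 43.3% of all genes in either direction. With each library's trend on gene span removed there were 5, against 5416 of 14103 genes. DESeq2 called 6 of 9, all lower, against 1908 of 13490 genes called lower and 30.4% in either direction. Without replicate 1 of SLC IL-1β+LOXL2, edgeR called all 9, with 8 lower and TEAD3 higher, but the background was then 61.7%. Leaving out any other library left 0 genes called, of these or of all genes. The count at an unadjusted p under 0.05 was then 3 without IL-1β replicate 1 (3524 of 14319 genes) or IL-1β+LOXL2 replicate 3 (3252 of 14293 genes). It was 4 without IL-1β replicate 2 (3160 of 14289 genes), and 7 without IL-1β replicate 3 (4263 of 14310 genes) or IL-1β+LOXL2 replicate 2 (4339 of 14293 genes). In SLC the fit on all 12 libraries, which shares 1 estimate of the spread, called 8, all lower, against 2691 of 14534 genes called lower.

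In MLC the same test called 3 of 8 genes, TEAD1, LATS1 and AMOTL1, all lower. Of all 13664 genes 21.6% were called there, 11.8% as lower and 9.81% as higher. The count was 0 without IL-1β replicate 1, IL-1β replicate 3 or IL-1β+LOXL2 replicate 2, where 0 of all genes were called. Only AMOTL1 was called without IL-1β replicate 2 (822 of 13824 genes) or IL-1β+LOXL2 replicate 3 (474 of 13834 genes). As single libraries were left out, the log2 fold change ranged from -0.84 to -0.48 for TEAD1, from -0.76 to -0.40 for LATS1 and from -0.67 to -0.46 for AMOTL1, so the fold changes kept their sign while calls over all genes came and went. Without IL-1β+LOXL2 replicate 1 the count was 6, with YAP1, WWTR1 and LATS2 added, against a background of 48.1%. YAP1 was also called lower in 5 of 7 other alternatives, among them DESeq2. With the span trend removed the count stayed at 3, where 1818 of 13664 genes were called, and in the fit on all 12 libraries it was 0, as over all genes.

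**Figure D1:**
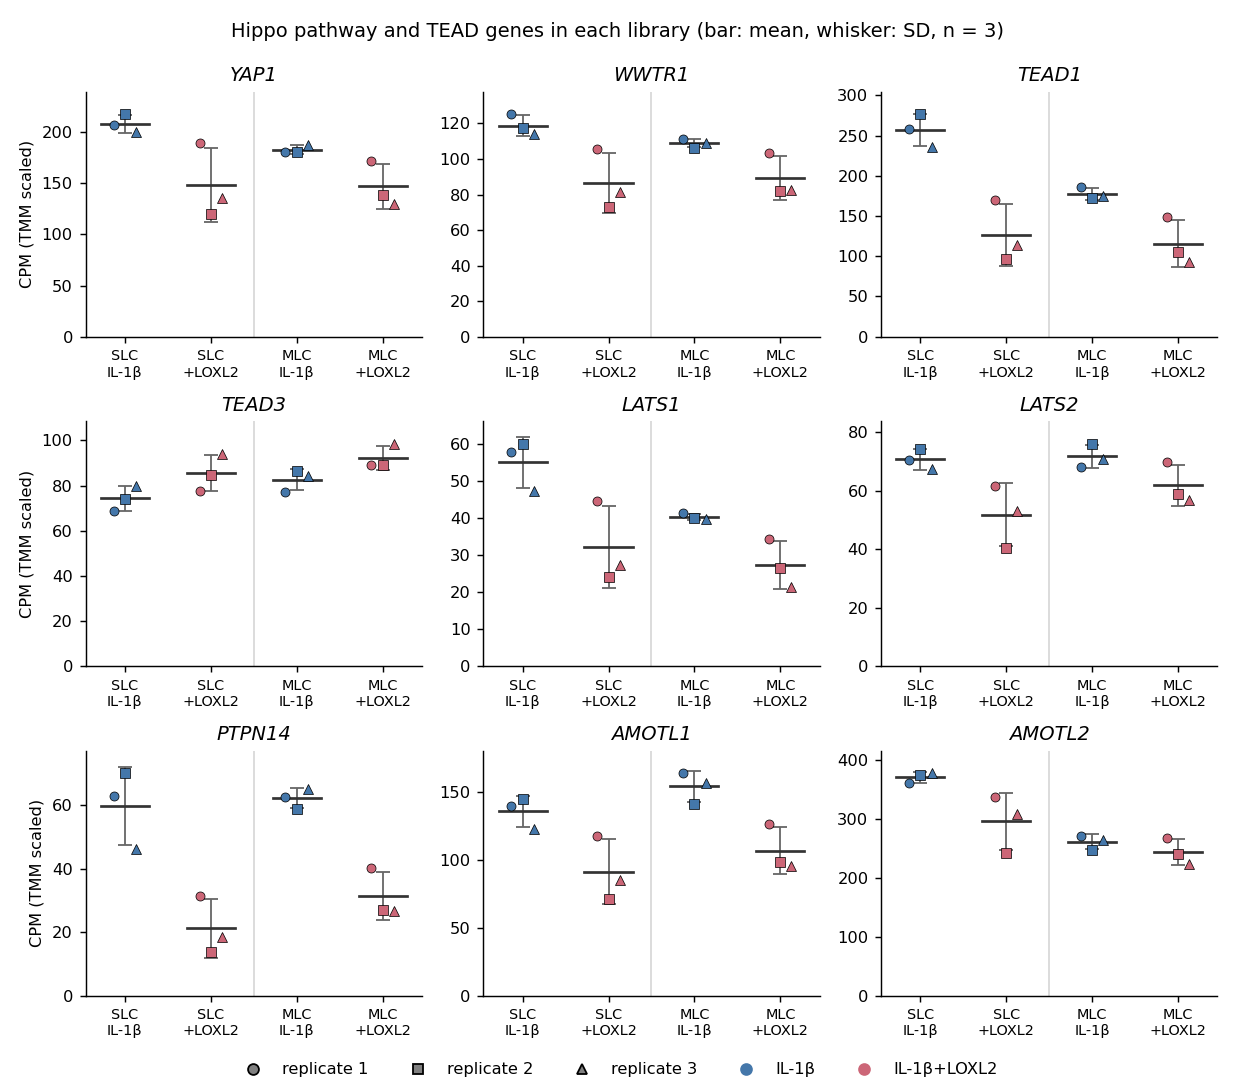
Levels of the 9 Hippo pathway and TEAD genes in each library, in CPM after TMM scaling on an axis that starts at 0. Points are libraries, with the symbol giving the replicate number, bars are means and whiskers the SD of 3 libraries. With LOXL2, 8 genes were lower in SLC without overlap, and the circle of replicate 1 lies nearest to the IL-1β mean in every panel.

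**Figure D2:**
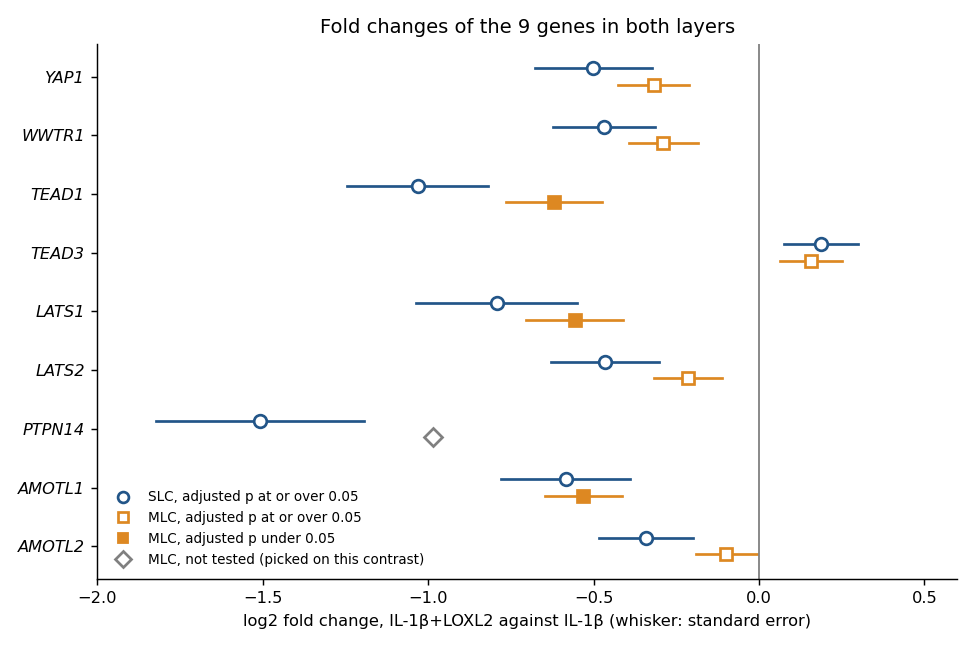
Log2 fold changes of IL-1β+LOXL2 against IL-1β for the 9 genes in SLC and MLC, with standard errors as whiskers. In MLC only TEAD1, LATS1 and AMOTL1 passed the adjusted threshold, PTPN14 in MLC was not tested, and TEAD3 lies to the right of 0 in both layers.

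The coactivators came first in the order of the pathway's output. YAP1 encodes YAP and lies on chromosome 15 from 75816546 to 75953978 of the goat assembly ARS1.2. Its CPM in SLC was 207, 217 and 200.0 with IL-1β and 189, 120.1 and 136 with LOXL2, and in MLC 181, 180.1 and 188 with IL-1β and 172, 139 and 129.7 with LOXL2. Every LOXL2 library was below every IL-1β library of its layer, and the gap was narrow only for replicate 1. The means were 208 ± 8.85 and 148 ± 36.1 in SLC (log2 fold change -0.50, SE 0.18, edgeR adjusted p = 0.0825) and 183 ± 4.07 and 147 ± 22.3 in MLC (-0.32, SE 0.11, adjusted p = 0.0505). Ordered by level, SLC with IL-1β was highest and MLC with IL-1β next, while both LOXL2 groups lay within each other's spread.

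WWTR1, on chromosome 1 from 118062421 to 118209259, encodes TAZ, the paralogue of YAP. Its CPM in SLC was 125, 117 and 114 with IL-1β and 106, 73.2 and 81.3 with LOXL2. In MLC it was 111, 106 and 109 with IL-1β and 103, 82.0 and 82.5 with LOXL2. The groups again did not overlap, and replicate 1 of MLC with LOXL2 lay just below the IL-1β libraries. The log2 fold change was -0.47 in SLC (SE 0.15, adjusted p = 0.0757) and -0.29 in MLC (SE 0.11, adjusted p = 0.0649), so neither passed the threshold. Within each library YAP1 had 1.57 to 1.85 counts for each count of WWTR1, and the ratio overlapped between treatments in both layers, which does not show that it was equal.

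The TEAD factors bring YAP and TAZ to DNA. TEAD1, on chromosome 15 from 42301834 to 42571328, had a CPM in SLC of 258, 277 and 236 with IL-1β and 170.1, 96.4 and 114 with LOXL2. In MLC it had 186, 172 and 175 with IL-1β and 149, 106 and 92.7 with LOXL2. All 6 LOXL2 libraries lay below all 6 IL-1β libraries, across both layers. The order was SLC with IL-1β, MLC with IL-1β, then both LOXL2 groups, which overlapped. TEAD1 fell in MLC (log2 fold change -0.62, SE 0.14, adjusted p = 0.0209), with all 3 LOXL2 libraries lower, and in SLC its value of -1.03 (SE 0.21) had an adjusted p of 0.0706.

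TEAD3, on chromosome 23 from 39262348 to 39283652, was the only 1 of the 9 genes with a positive fold change. Its CPM in SLC was 68.8, 74.2 and 79.9 with IL-1β and 77.8, 84.9 and 94.0 with LOXL2, and in MLC 77.3, 86.2 and 84.2 with IL-1β and 89.1, 89.2 and 98.6 with LOXL2. The SLC groups overlapped by a single pair of libraries, and the MLC groups did not overlap. The log2 fold change was 0.19 in SLC (SE 0.11, adjusted p = 0.225) and 0.16 in MLC (SE 0.09, adjusted p = 0.224). Neither value passed the threshold.

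The balance of the TEAD pair was read within each library, where scaling cancels. TEAD1 had 3.75, 3.73 and 2.96 counts for each count of TEAD3 in SLC with IL-1β, and 2.19, 1.14 and 1.21 with LOXL2. In MLC the ratio was 2.40, 1.99 and 2.08 with IL-1β and 1.67, 1.18 and 0.941 with LOXL2. Every LOXL2 library had a lower ratio than every IL-1β library of its layer. The two-sided exact permutation p was 0.1 in each layer, the smallest that 3 against 3 libraries allow. A test of this size cannot pass the threshold, so the ratio is a description. The trend of fold changes on gene length, given below, does not cancel in it, as TEAD1 spans 269.5 kb and TEAD3 21.3 kb. With that trend removed, the SLC log2 fold change was -0.65 for TEAD1 and 0.16 for TEAD3.

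The LATS kinases phosphorylate YAP and TAZ and so restrain them. LATS1, on chromosome 9 from 73813458 to 73849395, had a CPM in SLC of 57.7, 60.0 and 47.1 with IL-1β and 44.6, 24.0 and 27.4 with LOXL2. In MLC it had 41.2, 39.8 and 39.6 with IL-1β and 34.3, 26.3 and 21.4 with LOXL2. The SLC groups were separated by a small gap between IL-1β replicate 3 and LOXL2 replicate 1, and the MLC groups by a wider one. LATS1 fell in MLC (log2 fold change -0.56, SE 0.15, adjusted p = 0.0256, lower in 3 of 3 LOXL2 libraries) and had -0.79 in SLC (SE 0.24, adjusted p = 0.0714).

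LATS2, on chromosome 12 from 51063740 to 51098269, had a CPM in SLC of 70.6, 74.4 and 67.3 with IL-1β and 61.7, 40.4 and 53.2 with LOXL2. In MLC it had 68.3, 76.2 and 70.8 with IL-1β and 69.9, 58.8 and 57.0 with LOXL2. It was lower without overlap in SLC, while in MLC LOXL2 replicate 1 lay among the IL-1β libraries. Its log2 fold change was -0.47 in SLC (SE 0.16, adjusted p = 0.0825) and -0.22 in MLC (SE 0.10, adjusted p = 0.141). The count of LATS1 for each count of LATS2 was 0.562 ± 0.0400 with IL-1β and 0.438 ± 0.0581 with LOXL2 in MLC, without overlap (two-sided exact permutation p = 0.1, the smallest possible). In SLC the ratio overlapped, at 0.774 ± 0.0646 and 0.610 ± 0.105 (exact permutation p = 0.2).

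Among the proteins that bind YAP and hold it outside the nucleus, PTPN14 is a phosphatase-family scaffold. The gene lies on chromosome 16 from 67675316 to 67864199. Its CPM in SLC was 63.0, 70.2 and 46.1 with IL-1β and 31.5, 13.7 and 18.3 with LOXL2, and in MLC, where it was picked, 62.8, 58.8 and 65.1 with IL-1β and 40.3, 27.1 and 26.8 with LOXL2. In SLC, which the choice did not use, all LOXL2 libraries were below all IL-1β libraries. The SLC means were 59.8 ± 12.4 and 21.2 ± 9.23, a log2 fold change of -1.51 (SE 0.32) with an adjusted p of 0.0706, which does not pass. The MLC value, as a description, was -0.99.

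AMOTL1 and AMOTL2 encode angiomotin-like proteins, which tie YAP to cell junctions and actin. AMOTL1, on chromosome 15 from 66621598 to 66823760, had a CPM in SLC of 139.6, 145 and 123 with IL-1β and 118, 70.8 and 85.1 with LOXL2. In MLC it had 164, 141 and 157 with IL-1β and 126, 98.4 and 95.3 with LOXL2. The groups did not overlap in either layer, and in SLC the gap came down to IL-1β replicate 3 against LOXL2 replicate 1. AMOTL1 fell in MLC (log2 fold change -0.53, SE 0.12, adjusted p = 0.0199, lower in 3 of 3 LOXL2 libraries), and in SLC it had -0.58 (SE 0.19, adjusted p = 0.0764).

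AMOTL2, on chromosome 1 from 134526831 to 134544877, had a CPM in SLC of 360.4, 375 and 378 with IL-1β and 337, 242 and 307 with LOXL2. In MLC it had 272, 247 and 264 with IL-1β and 268, 241 and 224 with LOXL2. The SLC groups did not overlap and the MLC groups did. Its log2 fold change was -0.34 in SLC (SE 0.14, adjusted p = 0.107) and -0.10 in MLC (SE 0.09, adjusted p = 0.447). The count of AMOTL1 for each count of AMOTL2 in MLC was 0.590 ± 0.0160 with IL-1β and 0.436 ± 0.0324 with LOXL2, without overlap (two-sided exact permutation p = 0.1, the smallest possible), whereas in SLC the ratio overlapped at 0.366 ± 0.0357 and 0.306 ± 0.0381 (exact permutation p = 0.2). With each library's trend on gene span removed, the SLC log2 fold change was -0.21 for AMOTL1 and -0.39 for AMOTL2, so the direction of the SLC ratio turned.

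The layers also differed in the libraries with IL-1β alone. Under IL-1β 4 of 8 tested genes were lower in MLC than in SLC, against 3169 of all 13965 genes called lower and 46.9% called in either direction. No test set this count against all genes. AMOTL2 was lower by a log2 fold change of -0.50 (SE 0.06, edgeR adjusted p = 7.87e-06), TEAD1 by -0.53 (SE 0.07, adjusted p = 1.50e-05), LATS1 by -0.45 (SE 0.09, adjusted p = 0.000612) and YAP1 by -0.18 (SE 0.06, adjusted p = 0.0185). For each of these every MLC library was below every SLC library, in the same libraries that gave the calls. The share of all genes without overlap between layers was not taken. WWTR1 had -0.12 (adjusted p = 0.110), LATS2 0.02 (adjusted p = 0.797), TEAD3 0.16 (adjusted p = 0.0842) and AMOTL1 0.19 (adjusted p = 0.0517), and PTPN14, as a description, 0.06.

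The calls of AMOTL2, TEAD1 and LATS1 held without any single library. That of YAP1 was lost without SLC IL-1β replicate 2 or MLC IL-1β replicate 1, where its log2 fold change was -0.15 and -0.17. AMOTL1 was called as higher in MLC without SLC replicate 2 or MLC replicate 2, at 0.23 and 0.24, and TEAD3 without SLC replicate 3, at 0.21. With the span trend removed YAP1 was at -0.08 and no longer called, and AMOTL1 was called as higher at 0.30. The YAP1 call was also lost with the replicate block, AMOTL1 was called without the filter, and the fit on all 12 libraries called AMOTL2 alone, where 3715 of 14534 genes were called.

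With LOXL2 in both layers, 0 of 8 genes were called by edgeR between MLC and SLC, against a background of 16.1% of 14085 genes. None had an unadjusted p under 0.05, where 4176 of 14085 genes did, and DESeq2 called 0, where it called 2799 of 16564 genes. TEAD1, which stood at 257 ± 20.2 against 178 ± 7.39 CPM under IL-1β, was at 127 ± 38.5 against 116 ± 29.6 (log2 fold change -0.12, SE 0.26, adjusted p = 0.800). YAP1 was at 148 ± 36.1 in SLC and 147 ± 22.3 in MLC (-0.01, SE 0.20, adjusted p = 0.988). The wide spread of the LOXL2 libraries sets these standard errors, and a p above the threshold does not show that the layers were equal. Without SLC IL-1β+LOXL2 replicate 1, AMOTL1 was called as higher in MLC, at 0.48, where 4679 of 14234 genes were called.

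The interaction of layer and LOXL2 asked whether the fold changes differed between layers. By edgeR 0 of 8 genes passed, against a background of 0% of 14534 genes, and 0 had an unadjusted p under 0.05, where 2.26% of all genes did. DESeq2 called 0, as over all genes. Without SLC IL-1β+LOXL2 replicate 1 the unadjusted count was 6, against 3987 of 14718 genes, and the adjusted count 0, against 1 of 14718 genes. The interaction was positive for 7 of 8 genes, that is, less negative in MLC, with TEAD1 at 0.40 (SE 0.28, adjusted p = 0.959) and AMOTL2 at 0.23 (SE 0.16, adjusted p = 0.959). The median over all genes was -0.02. The number of the 8 genes with a negative interaction was 1, and between 0 and 2 under the alternatives, where AMOTL1 (0.04) or TEAD3 (-0.04) changed sign. The comparisons within and between layers share libraries, so a low SLC LOXL2 value enters several of them at once.

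All 9 genes differ in length along the genome, and fold changes followed length over all genes. A gene's span, from its first to its last annotated base, was correlated across genes with the log2 fold change, with a Spearman rho of -0.49 in SLC and -0.49 in MLC, where genes are not independent replicates. In SLC the median log2 fold change was 0.49 in the shortest of 10 equal bins of genes by span and -0.44 in the longest bin, which starts at 129.7 kb. In MLC these were 0.29 and -0.30.

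The longest bin holds YAP1 (137.4 kb), WWTR1 (146.8 kb), PTPN14 (188.9 kb), AMOTL1 (202.2 kb) and TEAD1 (269.5 kb). Among the 1408 SLC genes of that bin, 615 had a lower fold change than the coactivator YAP1, 659 than WWTR1 and 493 than the YAP-binding AMOTL1. TEAD1 had 92 genes below it and PTPN14 had 25. The shorter LATS1 (35.9 kb) and LATS2 (34.5 kb) lie in a bin whose median was -0.12, with 81 and 286 of 1407 genes below them. TEAD3 (21.3 kb) and AMOTL2 (18.0 kb) lie in bins with medians of 0.02 and 0.08, and AMOTL2 had 255 of 1408 genes below it.

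Removing each library's trend on span left YAP1 at -0.15 and WWTR1 at -0.10 in SLC, and at -0.07 and -0.03 in MLC. The other genes kept more of their difference. In SLC TEAD1 was at -0.65, LATS1 at -0.70, LATS2 at -0.37, PTPN14 at -1.16, AMOTL1 at -0.21 and AMOTL2 at -0.39. In MLC TEAD1 was at -0.36, LATS1 at -0.49 and AMOTL1 at -0.27, and the same 3 genes passed the threshold as without the removal. What links span and fold change in these libraries was not tested.

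**Figure D3:**
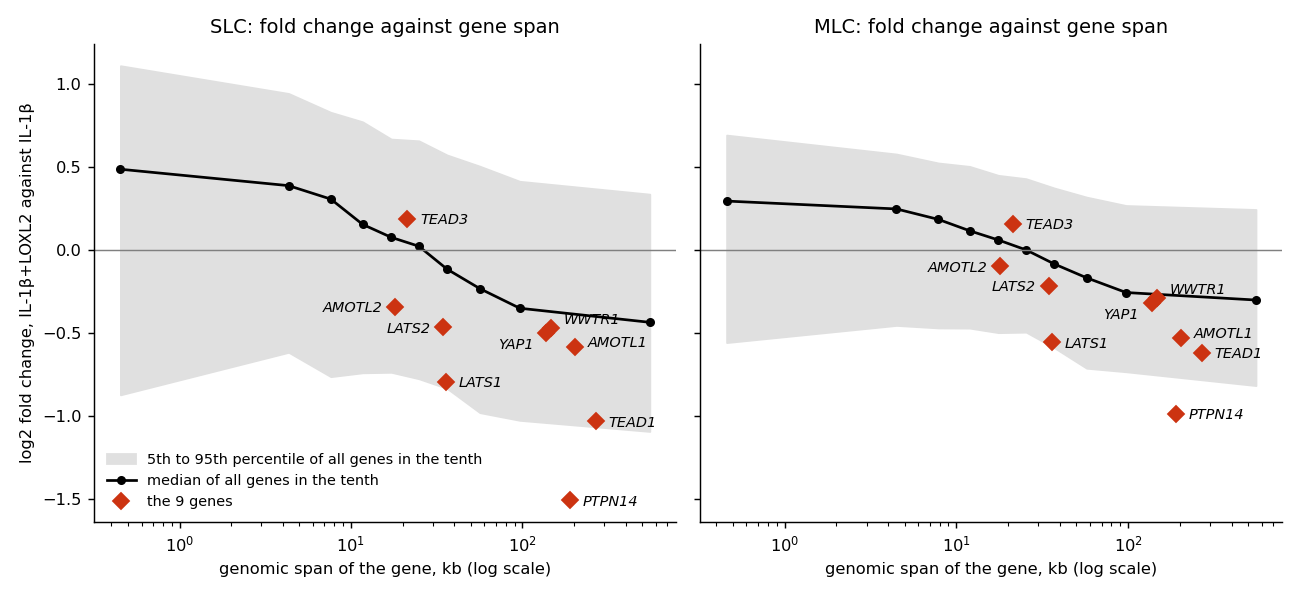
Log2 fold change of IL-1β+LOXL2 against IL-1β on the vertical axis and genomic span in kb on a logarithmic horizontal axis, for SLC and MLC. Black points are medians of 10 bins of all tested genes by span, the grey band their 5th to 95th percentiles, and red diamonds the 9 genes. YAP1 and WWTR1 lie close to the line of medians, and PTPN14 lies below the band in SLC, while its MLC point shows the values it was picked for.

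The genes whose pattern was most like YAP1 were sought among 11579 genes over 12 libraries, by Pearson r of log2 CPM after each gene's mean in its layer was subtracted. They were PPP1R12A (r = 0.997), KIDINS220 (0.997), CLTC (0.996), ZC3HAV1L (0.996) and GNG12 (0.996). For PTPN14 they were SLC4A7 (0.995), MOB1B (0.995), ZNF292 (0.995), HMBOX1 (0.994) and LRP6 (0.994). MOB1B is itself a Hippo gene, an activator of the LATS kinases. These values describe genes that share the libraries, the treatment and the uneven replicates, and carry no test.

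The rest of the pathway was read from 4 lists that left out the 9 genes. The first held 27 kinases and upstream regulators, of which 26 were tested in each layer. In SLC 23 of 26 had a negative fold change, with a median of -0.42 beside 0.01 over all genes, and edgeR called 0, while 16 had an unadjusted p under 0.05 (43.3% of all genes, in either direction) and DESeq2 called 7, all lower, where it called 1908 of 13490 genes lower. The most abundant were MAP4K4, a kinase that can act on LATS, at -0.20 (adjusted p = 0.154), and AJUBA, a LIM protein that binds LATS, at -0.28 (adjusted p = 0.130). With the span trend removed MAP4K4 was at 0.19, where its sign turned, and AJUBA at -0.46.

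In MLC 8 of the 26 fell and 0 rose, where 11.8% of all genes were called lower and 9.81% higher, and the median was -0.28 beside 0.01 over all genes. With the span trend removed the list median was -0.10 in MLC and -0.22 in SLC. LIMD1, a LIM protein that restrains LATS, had a CPM of 34.3, 22.4 and 31.2 with IL-1β and 18.8, 9.08 and 8.08 with LOXL2 in MLC. In SLC it had 27.4, 33.4 and 22.2 with IL-1β and 17.8, 2.96 and 6.47 with LOXL2. The groups did not overlap in either layer, and LIMD1 had a log2 fold change of -1.28 in MLC (SE 0.26, adjusted p = 0.0197) and -1.62 in SLC (SE 0.57, adjusted p = 0.0818).

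FAT4, an atypical cadherin at the cell surface, fell in MLC (-0.74, adjusted p = 0.0199), from 113 ± 16.8 to 67.6 ± 16.7 CPM. WWC2, of the KIBRA family of scaffolds that help activate LATS, fell in MLC from 209.9 ± 5.02 to 143 ± 27.2 CPM (-0.56, adjusted p = 0.0199). So genes that activate LATS and genes that restrain it were both among those that fell. The other genes called lower in MLC were WWC3, FRMD6, TAOK1, MOB1B and MAP4K3.

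The STRIPAK complex brings a phosphatase to the Hippo kinases and switches them off. Of its 14 tested genes, 0 were called in SLC by edgeR (6 with an unadjusted p under 0.05, DESeq2 5, beside 43.3% and 30.4% of all genes), and in MLC 1 rose and 1 fell, beside 21.6% of all genes called. The risen gene was STK25, a kinase of the complex, with a CPM in MLC of 57.2, 62.2 and 58.1 with IL-1β and 66.6, 82.3 and 96.3 with LOXL2 (0.46, SE 0.13, adjusted p = 0.0274). The fallen one was the scaffold STRN, from 48.2 ± 2.75 to 32.4 ± 7.78 CPM (-0.57, adjusted p = 0.0239). The list median was -0.18 in SLC and -0.12 in MLC, and with the span trend removed it was -0.0139 and 0.0506. The abundant phosphatase subunits PPP2R1A and PPP2CA had 0.44 (adjusted p = 0.0781) and 0.12 (adjusted p = 0.333) in SLC.

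Other TEADs, TEAD cofactors and proteins that retain YAP and TAZ formed a list with medians of -0.10 in SLC and 0.00 in MLC, or 0.00514 and 0.0437 with the span trend removed. In SLC edgeR called 0 of 13 (3 with an unadjusted p under 0.05, DESeq2 2, beside the same 43.3% and 30.4%), and the abundant YAP-binding 14-3-3 genes YWHAB and YWHAE had -0.13 (adjusted p = 0.387) and 0.23 (adjusted p = 0.1003). In MLC 1 of 14 fell, the TEAD cofactor VGLL3, beside 21.6% of all genes called. VGLL3 had a CPM in MLC of 165, 144 and 161 with IL-1β and 123, 84.7 and 71.2 with LOXL2 (-0.75, SE 0.16, adjusted p = 0.0199). In SLC it had 178, 193 and 163 with IL-1β and 118, 46.6 and 55.5 with LOXL2 (-1.29, SE 0.34, adjusted p = 0.0706). Every LOXL2 library was below every IL-1β library in both layers.

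Outside the rule for names, TEAD2 was looked up after the values of TEAD1 and TEAD3 were seen. Its CPM in SLC was 29.6, 33.1 and 29.6 with IL-1β and 33.5, 51.2 and 46.4 with LOXL2, and the groups did not overlap. In SLC it had a log2 fold change of 0.49 (adjusted p = 0.0762) and in MLC 0.28 (adjusted p = 0.0735), so it did not pass the threshold. TEAD4 had 0.08 in SLC (adjusted p = 0.661) and 0.18 in MLC (adjusted p = 0.284).

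The last list held 19 genes known as YAP and TAZ targets. In SLC 14 of 17 tested had a negative fold change, with a median of -0.41, and edgeR called 0, while 10 had an unadjusted p under 0.05 (43.3% of all genes) and DESeq2 called 8 (30.4%), with 7 lower. In MLC 4 of 18 fell and 1 rose, beside 21.6% of all genes called, and the median was -0.22. With the span trend removed the median was -0.11 in MLC and -0.29 in SLC. In MLC 0 of the 18 targets were then called, where 1818 of 13664 genes were. The Rac activator DOCK5 fell in MLC from 23.2 ± 0.290 to 16.3 ± 1.47 CPM (-0.51, adjusted p = 0.0203), and the Arf regulator ASAP1 from 119.9 ± 2.45 to 84.7 ± 16.0 CPM (-0.50, adjusted p = 0.0229). CRIM1 and MYOF also fell, and MYOF, a membrane protein, had -0.66 in SLC (adjusted p = 0.0707). The stress gene GADD45A rose in MLC, with a CPM of 63.2, 68.3 and 61.2 with IL-1β and 81.6, 79.8 and 88.0 with LOXL2 (0.37, SE 0.09, adjusted p = 0.0237).

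The best known targets are CCN1 and CCN2. CCN1, listed as CYR61, encodes a matricellular protein, and its CPM in SLC was 406, 561 and 543 with IL-1β and 467, 348 and 435 with LOXL2. In MLC it was 633, 575 and 624 with IL-1β and 645, 655 and 652 with LOXL2. The SLC groups overlapped, and in MLC the LOXL2 libraries were slightly above the others. In SLC it had a log2 fold change of -0.29 (adjusted p = 0.219) and in MLC 0.09 (adjusted p = 0.444). Without SLC IL-1β+LOXL2 replicate 1 it was called lower in SLC, at -0.39, as were 8849 of 14334 genes in either direction.

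CCN2, listed as CTGF, encodes connective tissue growth factor. Its CPM in SLC was 1676, 1797 and 1867 with IL-1β and 1897, 1457 and 1711 with LOXL2, and in MLC 1963, 2060.4 and 1946 with IL-1β and 2197, 2084 and 1998 with LOXL2. The groups overlapped in both layers. In SLC it had a log2 fold change of -0.09 (adjusted p = 0.615) and in MLC 0.07 (adjusted p = 0.548). Both genes are short, at 2.90 kb for CCN1 and 3.30 kb for CCN2, and with the span trend removed they were at -0.13 and -0.14 in MLC, where the sign of each turned, and at -0.59 and -0.39 in SLC, where neither was called.

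Over the 4 lists in MLC, 14 genes were called lower and 2 higher, beside 11.8% and 9.81% of all genes. No test set the lists against all genes. Without IL-1β replicate 1, IL-1β replicate 3 or IL-1β+LOXL2 replicate 2, or in the fit on all 12 libraries, the counts were 0 and 0, as over all genes. They were 6 and 1 without IL-1β replicate 2 (610 and 212 of 13824 genes), 5 and 0 without IL-1β+LOXL2 replicate 3 (390 and 84 of 13834 genes), and 38 and 8 without IL-1β+LOXL2 replicate 1, where 48.1% of all genes were called. With the span trend removed 5 were lower and 1 higher (1005 and 813 of 13664 genes). LIMD1, FAT4, WWC2 and VGLL3 were then still called, while DOCK5, ASAP1, CRIM1, MYOF, GADD45A, STRN and STK25 were not. In SLC the counts were 0 and 0, and 18 lower and 4 higher with DESeq2 (1908 and 2197 of 13490 genes) and 27 and 5 in the fit on all 12 libraries (2691 and 3274 of 14534 genes). Leaving out IL-1β+LOXL2 replicate 1 in SLC gave 44 lower and 6 higher, where 61.7% of all genes were called.

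**Figure D4:**
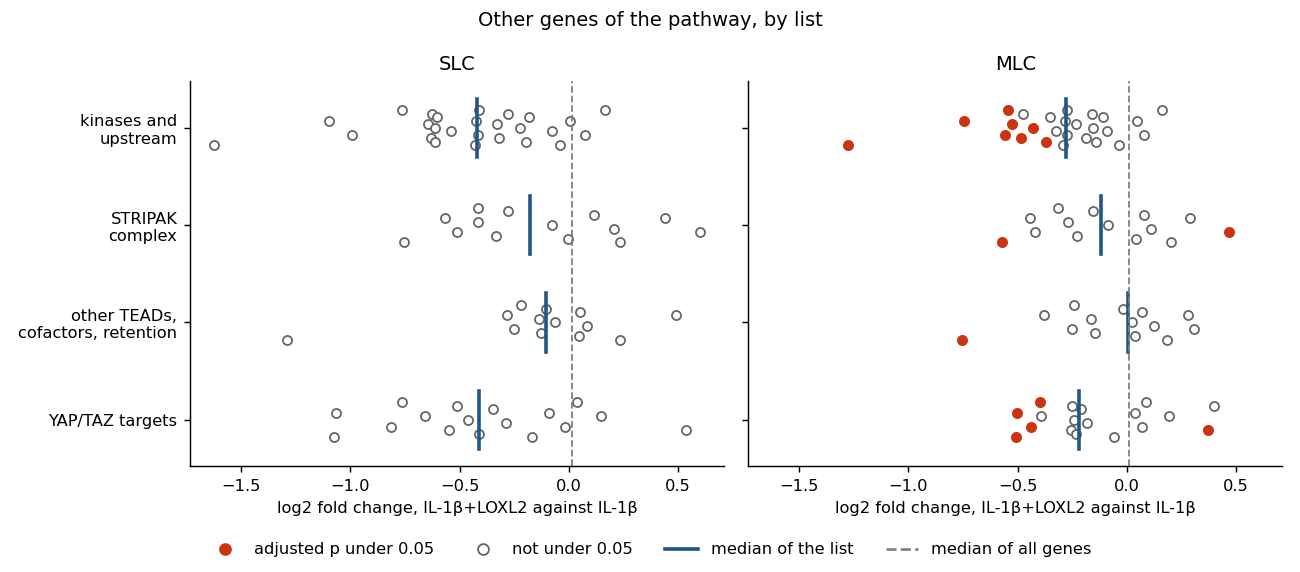
Log2 fold changes of IL-1β+LOXL2 against IL-1β for other genes of the pathway, grouped by list on the vertical axis, in SLC and MLC. Each circle is a gene, filled red where the edgeR adjusted p was under 0.05, blue bars are list medians and dashed lines the median of all genes. Kinases and targets lie mostly to the left of 0 in both layers, and filled circles appear in MLC alone.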

How the data were processed

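The 12 RNA-seq libraries were read from the gene counts that the authors deposited, 1 table per layer. The submitters' processing notes name HISAT2 and featureCounts, and the build is ARS1.2. How strand and multi-mapped reads were handled is not given in the sources used here, so counts of overlapping or near-identical genes are uncertain. Each table has 28910 rows, and 9 of 9 genes matched 1 row each and the RefSeq annotation of ARS1.2, which gave their coordinates. Both tables were joined by row.

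The main test was the quasi-likelihood F test of edgeR 4.0.16, run in R 4.3.3 on TMM-scaled counts. Genes were kept by filterByExpr (min.count 10, min.total.count 15). Each comparison used its own 6 libraries, and the interaction all 12, without a replicate block. Tests were two-sided, and Benjamini-Hochberg adjusted p under 0.05 over all genes was called. Standard errors are |log2 fold change|/√F. Only the main edgeR fit of LOXL2 within each layer was also run on simulated counts. These had the same small spread for all genes and no uneven replicate, so they do not test the fit on libraries like these. The other comparisons and alternatives were not simulated. The alternatives were DESeq2 1.42.0, its size factors, no filter, 10 counts in every library, a replicate block, each library left out, a fit on all 12 libraries, and removal of each library's lowess trend (span of 0.3) of log2 CPM on gene span.

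The members and lists were chosen with earlier results of these data known. In each list and layer, up to 3 called genes with the smallest p were named, or the 2 most abundant where none was called, with CCN1 and CCN2 always. Any further called genes were listed by name. MOB4, CSNK1E and LYZ were not found by name.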

Additional observations from a re-analysis of the deposited data

Results flagged for a closer look

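AJUBA was lower than its IL-1β mean in all 3 SLC libraries with LOXL2 and higher in all 3 MLC libraries with LOXL2. Its CPM was 238, 239 and 243 with IL-1β and 225, 171 and 205 with LOXL2 in SLC, and 165, 187 and 164 with IL-1β and 173, 193 and 181 with LOXL2 in MLC. The means were 240.1 ± 2.26 and 200.1 ± 27.4 in SLC, and 172 ± 12.9 and 182 ± 10.5 in MLC. The interaction was 0.34 on the log2 scale (SE 0.15, edgeR adjusted p = 0.959), so the difference between layers did not pass the test. With the span trend removed AJUBA was at -0.0652 in MLC and -0.46 in SLC, so both layers were then negative.

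CYR61 (CCN1) also lay below its IL-1β mean in all 3 SLC libraries with LOXL2 and above it in all 3 MLC libraries with LOXL2. Its CPM was 406, 561 and 543 with IL-1β and 467, 348 and 435 with LOXL2 in SLC, and 633, 575 and 624 with IL-1β and 645, 655 and 652 with LOXL2 in MLC. The means were 503 ± 84.8 and 417 ± 61.2 in SLC, and 611 ± 31.6 and 651 ± 4.91 in MLC. The interaction was 0.36 on the log2 scale (SE 0.19, edgeR adjusted p = 0.959), and this difference did not pass the test either. With the span trend removed CYR61 was at -0.13 in MLC and -0.59 in SLC, again negative in both layers.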

How the results depend on the processing

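The count of Hippo genes called moved with the choices made. In SLC it was 0, and 6 with DESeq2, 8 in the fit on all 12 libraries and between 0 and 9 as single libraries were dropped. In MLC it was 3, and 4 in 4 alternatives, where YAP1 was added. These were DESeq2 (3258 of 12209 genes called), its size factors (2972 of 13664), no filter (3655 of 19942) and 10 counts in every library (2981 of 12979). It was 5 with the replicate block, where 4053 of 13664 genes were called, 0 in the fit on all 12 libraries and between 0 and 6 as single libraries were dropped. Replicate numbers were not treated as pairs in the main test, since the study's methods name no pairing. Each library's deviations in log2 CPM from its group mean were correlated over genes between same-numbered libraries of a layer. The r was 0.0302, -0.227 and 0.124 in SLC and 0.0805, 0.110 and -0.0519 in MLC. Between layers under IL-1β the count of Hippo genes called was 4. It was 3 with the replicate block (5816 of 13965 genes) and 1 in the fit on all 12 libraries (3715 of 14534 genes). It was 5 without the filter (7022 of 20226 genes). As single libraries were dropped it was between 3 and 5, where 5410 to 6625 of all genes were called. Between layers with LOXL2 it was 0, and between 0 and 1 as single libraries were dropped. With the replicate block, YAP1 between layers with LOXL2 turned to 0.0142. Removing the span trend turned the AMOTL1 interaction to -0.0706, AJUBA, CTGF and CYR61 in MLC to -0.0652, -0.14 and -0.13, MAP4K4 to 0.19 in SLC and 0.0758 in MLC, and the medians of the STRIPAK list in MLC to 0.0506 and of the other TEADs in SLC to 0.00514. Leaving out each library turned small values. Between layers with LOXL2, YAP1 ranged from -0.14 to 0.22, WWTR1 from -0.0633 to 0.23, TEAD1 from -0.34 to 0.16 and LATS1 from -0.41 to 0.12. Between layers under IL-1β, LATS2 ranged from -0.0216 to 0.0586 and PTPN14 from -0.0939 to 0.19. The interaction ranged from -0.11 to 0.0297 for TEAD3 and from -0.11 to 0.27 for AMOTL1, and CTGF in SLC ranged from -0.19 to 0.00881. Over all genes, the number called by LOXL2 in SLC was 0, and 4105 with DESeq2, 8849 without LOXL2 replicate 1 and 5965 when all 12 libraries were fitted. In MLC it was 2958, and 1818 with the span trend removed, 0 in the fit on all 12 libraries and between 0 and 6653 as single libraries were dropped. Between layers under IL-1β it was 6548, and 3715 in the fit on all 12 libraries. Between layers with LOXL2 it was 2268, and 3887 with the replicate block, 4199 in the fit on all 12 libraries and between 1140 and 4679 as single libraries were dropped. Of the other values, 549 fold changes of the 9 genes kept their sign and their side of the threshold, or, for untested PTPN14, lay within the SD between replicates. Of the others 38 came under the threshold and 23 no longer did. For the other named genes these were 362, 43 and 57. The cause was not tested. No fold change of the 9 genes by LOXL2 within a layer changed sign under any alternative run.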
